A study of Mus musculus with 30 samples.

Results

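Nppa and Nppb encode the precursors of atrial natriuretic peptide and B-type natriuretic peptide, and each was measured by 1 probe set of a mouse Affymetrix MG_U74Av2 array. They were taken as every probe set whose platform annotation gives exactly the symbol Nppa or Nppb, which found 2 of the 12488 probe sets: 103593_at for Nppa (Entrez 230899) and 104184_at for Nppb (Entrez 18158). The array set holds 30 arrays of left ventricle from C57BL/6 mice aged 2 months, and the series compares diet, sex and disease in the mouse heart. Mice of both sexes were either wild-type or carried the genotype labelled HCM, the usual abbreviation of hypertrophic cardiomyopathy, and ate a soy-based or a casein-based diet. The labels used here do not name the mutation, the promoter that drives it or the line. Male and female wild-type mice on either diet and male and female HCM mice on casein gave 4 arrays each, and male and female HCM mice on soy gave 3 each. RNA of 2 animals was pooled for each array, so the spread between arrays of a group is a spread between pools and p-values measure only that.

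Both peptides are made as prohormones by heart muscle cells, and the processed hormones act on a receptor that makes cyclic GMP, which promotes salt and water excretion and relaxes vessels. In the healthy adult heart the atria are the main source of atrial natriuretic peptide, and the ventricle reduces its Nppa after birth. Renewed ventricular Nppa and Nppb transcripts, together with Myh7 and Acta1, are widely used as markers of cardiac hypertrophy and wall stress.

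The 2 genes lie next to each other, and their proximal promoters are shown because the transcripts were measured from neighbouring genes that shared only part of their response. In the RefSeq tables of the mouse build GRCm38.p6 both genes lie on the plus strand of chromosome 4 with start sites 14.8 kb apart, no other gene between them, and Clcn6 after Nppa. The 250 bases before each start site are chr4:147985650-147985899 for Nppb and chr4:148000472-148000721 for Nppa, both of which lie upstream of the annotated transcript. Each is printed 5′ to 3′ in lower case with matches to the searched words in capitals.

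Nppb: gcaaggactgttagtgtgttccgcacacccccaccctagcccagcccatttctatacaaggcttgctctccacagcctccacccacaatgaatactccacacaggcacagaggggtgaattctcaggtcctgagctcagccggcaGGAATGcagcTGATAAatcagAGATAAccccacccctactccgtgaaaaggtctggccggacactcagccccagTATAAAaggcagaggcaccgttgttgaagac
Nppa: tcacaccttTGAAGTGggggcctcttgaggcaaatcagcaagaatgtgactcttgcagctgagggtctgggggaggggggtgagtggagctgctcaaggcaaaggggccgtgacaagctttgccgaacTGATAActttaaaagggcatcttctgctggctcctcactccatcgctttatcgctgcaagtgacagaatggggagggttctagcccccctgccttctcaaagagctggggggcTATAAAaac

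Words known for cardiac and basal promoter factors were searched on both strands, and the share of the 32841 promoters of this length that hold each is given beside it. For GATA factors these were AGATAA (in 9.99% of promoters), TGATAA (in 7.94%), AGATAG (in 7.71%) and TGATAG (in 6.35%), with at least 1 of the 4 in 26.5%. The others were TNAAGTG for NKX2-5 (in 10.1%), CATTCC for TEAD (M-CAT, in 12.6%), TGANTCA for AP-1 (in 6.75%), TATAAA as the TATA word (in 12.4%) and the CArG box of serum response factor (in 1.47%). Nppb held TGATAA from 95 to 90 bases and AGATAA from 84 to 79 bases before the start, CATTCC on the minus strand (printed as GGAATG) from 105 to 100, and TATAAA from 31 to 26. Nppa held TGATAA from 122 to 117 bases before the start, TGAAGTG as a match to TNAAGTG from 241 to 235, and TATAAA from 9 to 4. No word overlapped another in these windows, and neither window held TGANTCA or a CArG box. A match is a description of these letters only.

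Values are deposited log2 levels after robust multi-array averaging (RMA), so a difference of 1 is a 2-fold change. Array medians ran from 6.11 to 6.22. The labels give no batch, but hybridisation controls differed between the arrays. The bacterial control Dap read 7.18 to 8.07 on the 8 casein HCM arrays and 4.03 to 4.70 on the other 22. The difference between the controls BioD and BioC was 0.50 to 0.63 on casein wild-type replicates 3 and 4, 2.17 to 2.44 on casein wild-type replicates 1 and 2, 2.35 to 2.45 on soy HCM, 1.59 to 1.75 on casein HCM and 1.56 to 1.87 on soy wild-type arrays. The controls did not separate soy HCM arrays from casein wild-type replicates 1 and 2, whose ranges overlapped. The 5 array sets used here follow the diet and genotype labels. Casein wild type is split between replicates 1 and 2 and replicates 3 and 4. Genotype within a diet, and diet within a genotype, compare arrays whose controls differed. These effects cannot be told apart from array set, whereas both sexes lie in every set. A fit with these 5 sets as a random block is given beside each call it ended. That fit learns the size of set differences from casein wild type alone, the only groups that span sets. It cannot separate a set difference from a genotype or diet effect, even where a call held.

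The tissue label was checked against ventricular and atrial markers. The ventricular light chain Myl2 read 12.83 to 13.66 on all 30 arrays. The heart muscle genes Tnnt2 and Myh6, which do not tell ventricle from atrium, read 11.55 to 12.62 and 12.06 to 12.9. The atrial light chain Myl7 ranged from 6.4 to 10.9 and the atrial calcium pump regulator Sln from 5.56 to 6.45. Less RNA per cell and fewer cells of a type cannot be told apart in these bulk samples.

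Nppb was higher in HCM than in wild-type ventricle on both diets, and the rise was larger on casein. On soy, the 4 male wild-type arrays read 10.38, 9.13, 10.63 and 9.87, and the 3 male HCM arrays 10.37, 11.01 and 10.98. The 4 female wild-type arrays on soy read 9.53, 10.57, 10.48 and 9.52, and the 3 female HCM arrays 10.89, 10.50 and 10.95. In each sex 2 of 3 HCM arrays lay above every wild-type array, and the groups overlapped. On casein, male wild-type arrays read 10.29, 10.31, 10.54 and 10.68 against 11.34, 11.67, 11.48 and 11.14 in male HCM. Female wild-type arrays on casein read 9.93, 9.94, 9.25 and 9.68 against 11.88, 11.61, 11.53 and 11.41 in female HCM. No casein HCM array overlapped a wild-type array of the same sex.

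**Figure D1:**
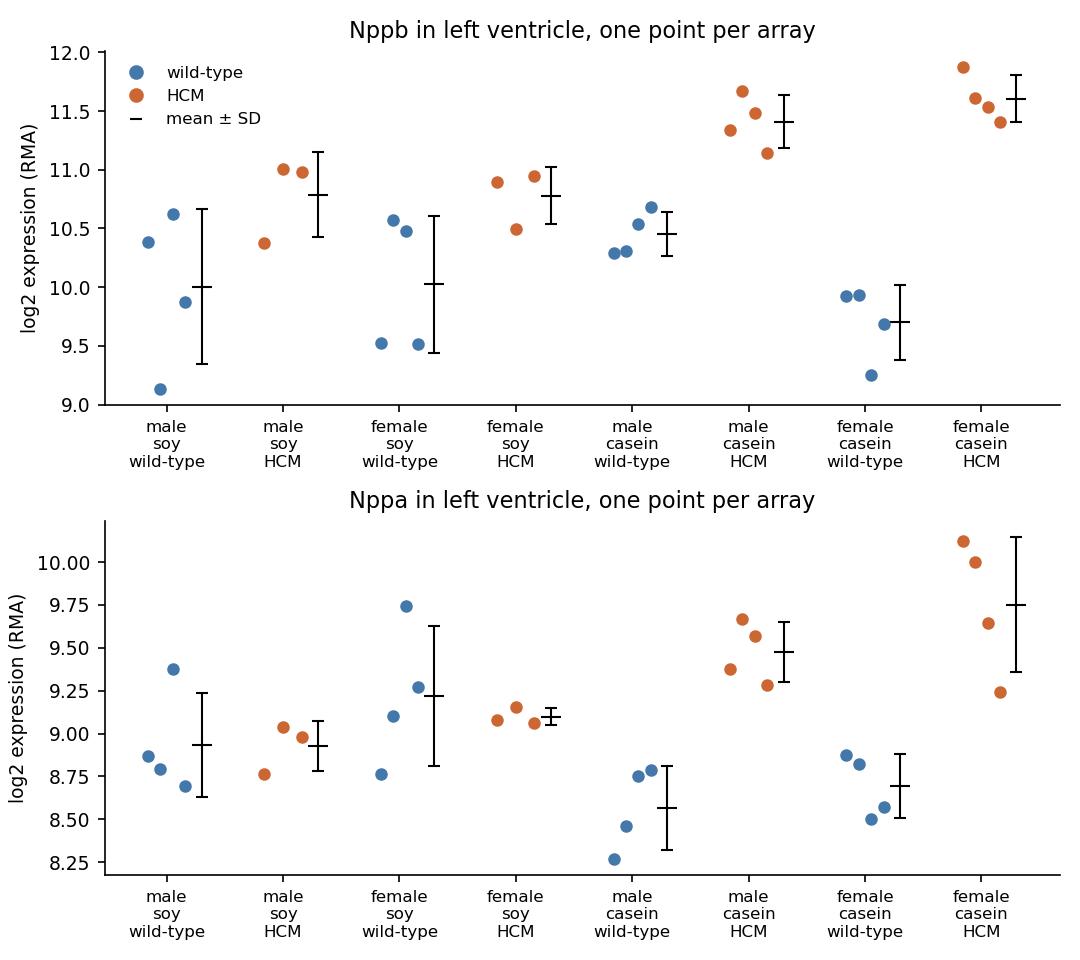
Log2 RMA level of Nppa and Nppb on each of the 30 arrays (points), by sex, diet and genotype on the x axis, with the group mean ± SD in black. The 8 casein HCM arrays lie above the casein wild-type arrays of their sex for both genes, whereas on soy the genotypes overlap.

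The tests were made with limma on all 8251 genes, with Benjamini-Hochberg adjusted p-values over all of them and a threshold of 0.05. The mean HCM effect over sexes and diets on Nppb was 1.10 ± 0.13 (log2 difference ± SE, adjusted p = 3.74e-07), a 2.14-fold rise and the fourth largest of 8251 genes. For this comparison 18.7% of all genes were called higher and 34.1% were called in either direction. On soy the Nppb rise was 0.77 ± 0.19 (adjusted p = 0.00417, 1.71-fold, 12.3% of genes called higher). On casein it was 1.43 ± 0.18 (adjusted p = 1.59e-07, 2.70-fold, 26.9% of genes called higher). With the array sets as a random block the soy value kept its size and its adjusted p became 0.143, while the casein value had an adjusted p of 0.000137. Neither p-value separates genotype from array set.

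Within single strata, Nppb was 1.91 ± 0.25 higher in female HCM on casein (adjusted p = 1.42e-06, 3.75-fold, the third largest difference, 18.6% of genes called higher). In males on casein it was 0.95 ± 0.25 higher (adjusted p = 0.00419, 18.2% called higher). Against casein wild-type replicates 3 and 4 alone the male value was 0.80 with an adjusted p of 0.0644. On soy the strata gave differences of 0.79 ± 0.27 in males (adjusted p = 0.0501, 7.25% called higher) and 0.76 ± 0.27 in females (adjusted p = 0.11, 2.1% called higher), neither past the threshold. The share of all genes whose 4 HCM arrays lay above every wild-type array on casein was 16.8% in males and 18.2% in females.

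The male soy call sat at the threshold and depended on single arrays. It passed without male soy wild-type array 3 (adjusted p = 0.0158), male soy wild-type array 1 (adjusted p = 0.0256), male soy HCM array 1 (adjusted p = 0.0306) or any one of 6 other wild-type arrays (adjusted p = 0.044 to 0.0495), with limma values from 0.50 to 0.99 over all such omissions. The female soy call passed only without male soy wild-type array 2, the array with the lowest Nppb (adjusted p = 0.0344).

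Nppa rose in HCM on casein, with no rise called on soy. On soy, male wild-type arrays read 8.87, 8.79, 9.37 and 8.70 and male HCM arrays 8.76, 9.04 and 8.98. Female wild-type arrays on soy read 8.77, 9.10, 9.74 and 9.27, and female HCM arrays 9.08, 9.16 and 9.06. In both sexes the soy HCM values lay inside the wild-type range. On casein, male wild-type arrays read 8.27, 8.46, 8.75 and 8.78 against 9.37, 9.67, 9.57 and 9.29 in male HCM. Female wild-type arrays on casein read 8.88, 8.83, 8.50 and 8.57 against 10.12, 10.00, 9.64 and 9.24 in female HCM. All 8 casein HCM arrays lay above every casein wild-type array of their sex.

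On soy the Nppa difference was -0.06 ± 0.14 (adjusted p = 0.764), with a 95% interval from -0.34 to 0.21, and on casein it was 0.98 ± 0.13 (adjusted p = 2.92e-07, 1.98-fold) by limma, where 26.9% of all genes were called higher. The mean over diets, 0.46 ± 0.09 (adjusted p = 0.000362, 1.38-fold), averages these unlike values. The casein rise was 0.91 ± 0.18 in males (adjusted p = 0.000267) and 1.06 ± 0.18 in females (adjusted p = 4.26e-05), again without overlap. On soy the differences were -0.01 ± 0.19 in males (adjusted p = 0.987) and -0.12 ± 0.19 in females (adjusted p = 0.792). Nppa ranked 48th of 8251 genes by its rise on casein, against 9th for Nppb.

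**Figure D2:**
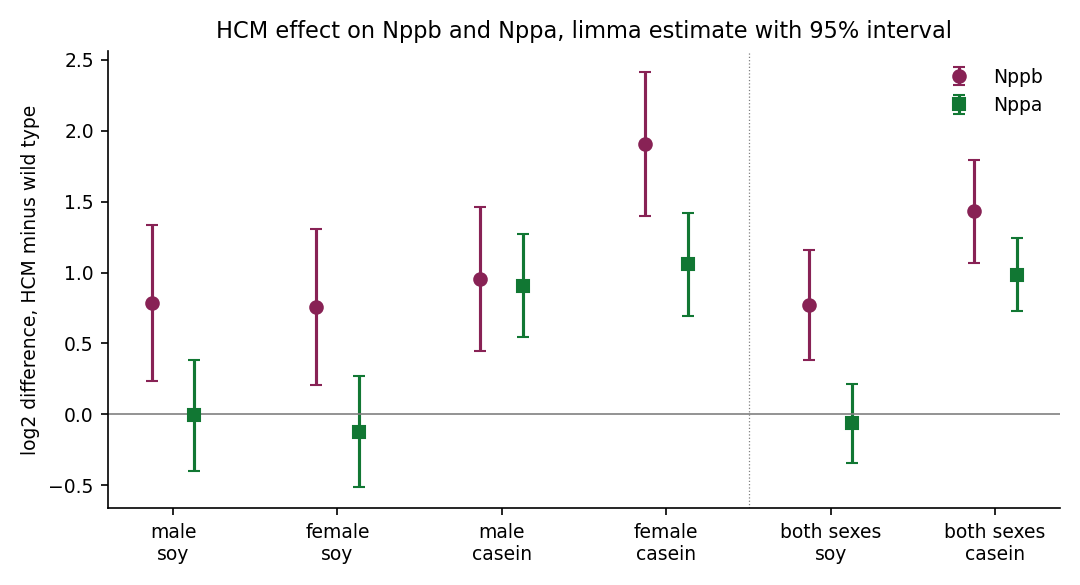
HCM minus wild-type difference (log2, y axis) of Nppb (circles) and Nppa (squares) in each sex and diet and over both sexes, as limma estimates with unadjusted 95% intervals. On soy the interval over both sexes runs from 0.38 to 1.16 for Nppb and from -0.34 to 0.21 for Nppa.

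For both genes HCM had a larger effect on casein than on soy. The effect on casein minus the effect on soy was 1.05 ± 0.18 for Nppa (adjusted p = 4.51e-05) and 0.66 ± 0.26 for Nppb (adjusted p = 0.0392) by limma. In this comparison 25% of all genes were called with a positive difference and 45.1% in either direction, so a call here is common. The Nppb call was lost when any 1 of 12 arrays was left out (adjusted p = 0.0531 to 0.0905, value 0.56 to 0.80 over all omissions): male soy wild-type 1 and 3, male casein wild-type 1 and 2, male soy HCM 1, male casein HCM 2 and 3, female soy wild-type 2 and 3, female casein wild-type 3, female soy HCM 2 and female casein HCM 1. It was also lost with array sets as a random block (adjusted p = 0.236) and with quantile normalization added (0.50, adjusted p = 0.0979). The Nppa call held in each of these alternatives, none of which separates it from array set.

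Seen from the diet side, casein went with lower Nppa in wild-type ventricle and higher Nppa in HCM ventricle. The casein minus soy difference in Nppa was -0.45 ± 0.13 in wild type (adjusted p = 0.00453, 25.4% of genes called lower) and 0.60 ± 0.14 in HCM (adjusted p = 0.000386, 31.9% called higher) by limma. The wild-type call was lost with array sets as a random block (adjusted p = 0.0743). In wild-type females the difference was -0.53 ± 0.18 (adjusted p = 0.0294, 13.7% of genes called lower) and in wild-type males -0.37 ± 0.18 (adjusted p = 0.101, 20.5% called lower). The female call was lost with the random block (adjusted p = 0.119) and without female soy wild-type array 3, the highest of its group (-0.35, adjusted p = 0.162), female soy wild-type array 4 (adjusted p = 0.0659), or female casein wild-type array 3 (adjusted p = 0.0923) or 4 (adjusted p = 0.0796). In HCM males casein minus soy was 0.55 ± 0.19 (adjusted p = 0.0194, 25.8% of genes called higher) and in HCM females 0.65 ± 0.19 (adjusted p = 0.00687, 23% called higher). The male call was lost with the random block (adjusted p = 0.0845) and without male soy HCM array 1 (adjusted p = 0.0898) or male casein HCM array 2 (adjusted p = 0.0577).

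Nppb in wild-type ventricle gave no diet call, with 0.06 ± 0.18 (adjusted p = 0.785 by limma) and an interval from -0.30 to 0.43. The sexes pointed opposite ways, with 0.45 ± 0.25 in males (adjusted p = 0.15) and -0.32 ± 0.25 in females (adjusted p = 0.362), and the difference between them, female minus male, was -0.77 ± 0.35 (unadjusted p = 0.0361, adjusted p = 0.391). In HCM ventricle Nppb was 0.72 ± 0.19 higher on casein (adjusted p = 0.00173, 1.65-fold). With quantile normalization added this value was 0.34 and was no longer called (adjusted p = 0.101). In HCM females it was 0.83 ± 0.27 (adjusted p = 0.0139), a call lost with the random block (adjusted p = 0.0712) and without female soy HCM array 2 (adjusted p = 0.0775), and in HCM males 0.62 ± 0.27 (adjusted p = 0.0567). The mean diet effect on Nppb over genotypes was 0.39 ± 0.13 (adjusted p = 0.00977, and 0.102 with the random block), and on Nppa 0.08 ± 0.09 (adjusted p = 0.483). Over all genes 62.9% were called for the mean diet effect.

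No sex difference in either gene passed the limma threshold. Female minus male was -0.14 ± 0.13 for Nppb (adjusted p = 0.77) and 0.22 ± 0.09 for Nppa (unadjusted p = 0.0271, adjusted p = 0.497), in a comparison where 0.267% of genes were called. In casein wild-type mice the 4 female Nppb values lay below all 4 male values, a difference of -0.75 ± 0.25 (unadjusted p = 0.00521, adjusted p = 0.409), where 0.145% of genes were called and 1.37% had females below males without overlap. It was -0.37 with casein wild-type replicates 1 and 2 and -1.14 with replicates 3 and 4. In soy wild-type mice the Nppb difference was 0.02 (adjusted p = 0.967, 0.0727% of genes called) and in casein HCM mice 0.20 ± 0.25 (adjusted p = 0.798, 0.485% called). The 3 female soy HCM arrays lay above the 3 male ones for Nppa by 0.17 ± 0.21 (adjusted p = 1, 0.0364% of genes called), as 3.2% of all genes did.

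The HCM rise of Nppb on casein was nominally larger in females than in males, by 0.95 ± 0.35 (unadjusted p = 0.0115), the third largest such difference of 8251. It did not pass limma's adjustment (adjusted p = 0.853), which 0.0606% of genes did, all with a negative difference. The same difference in Nppa was 0.15 ± 0.25 (adjusted p = 0.991). On soy it was -0.03 ± 0.38 for Nppb (adjusted p = 0.988) and -0.12 ± 0.27 for Nppa (adjusted p = 0.967). The mean HCM by sex difference was 0.46 ± 0.26 for Nppb (adjusted p = 0.902) and 0.02 ± 0.18 for Nppa (adjusted p = 0.988). No gene was called by limma for HCM by sex over both diets (345 had an unadjusted p under 0.05), HCM by sex on soy (153), diet by sex (1227) or the three-way difference (250), and the members gave three-way values of 0.98 ± 0.52 for Nppb and 0.27 ± 0.37 for Nppa (adjusted p = 0.998 for both).

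The order of the 8 group means was led by casein HCM in both genes. Nppb read 11.61 ± 0.20 in casein HCM females (mean ± SD, n = 4) and 11.41 ± 0.22 in males (n = 4), then 10.79 ± 0.36 and 10.78 ± 0.24 in soy HCM males and females (n = 3 each). The wild-type groups followed with 10.45 ± 0.19 in casein males, 10.02 ± 0.58 in soy females, 10.00 ± 0.66 in soy males and 9.70 ± 0.32 in casein females (n = 4 each). Of neighbours in that order only casein HCM males and soy HCM males had ranges that did not overlap, 0.62 apart. Of all genes 30.4% had casein HCM males above soy HCM males without overlap. This Nppb difference was not called (limma, adjusted p = 0.0567). Nppa read 9.75 ± 0.40 and 9.47 ± 0.18 in casein HCM females and males, 9.22 ± 0.41 in soy wild-type females, 9.10 ± 0.05 in soy HCM females and 8.93 in both soy male groups (SD 0.30 in wild type, 0.14 in HCM). It was lowest in casein wild type, with 8.69 ± 0.19 in females and 8.57 ± 0.25 in males. Every pair of neighbours in the Nppa order overlapped.

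As a mean over the sexes, Nppb changed more than Nppa with HCM on both diets. The Nppb change minus the Nppa change from wild type to HCM was 0.84 on soy (n = 6 HCM and 8 wild-type arrays, two-sided exact permutation test within sex over 1225 rearrangements, p = 0.00571, adjusted p = 0.0131 over 4 comparisons). On casein it was 0.45 (8 and 8 arrays, 4900 rearrangements, exact permutation p = 0.00653, adjusted p = 0.0131). From soy to casein it was 0.51 in wild type (exact permutation p = 0.02, adjusted p = 0.0267) and 0.12 in HCM (exact permutation p = 0.291). The wild-type value is not a larger Nppb change, since Nppa gave -0.45 there and Nppb 0.06. These are differences between changes and set no level of one probe set against the other. By limma the male changes with HCM on casein were close, 0.95 for Nppb and 0.91 for Nppa, against 1.91 and 1.06 in females. Rearrangement within sex took no account of the array sets.

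Nppa and Nppb levels varied together over the 30 arrays, with a Pearson r of 0.72 (permutation p = 1e-05, the smallest that 100000 rearrangements can give), a Spearman rho of 0.73 (permutation p = 3e-05) and an r of 0.64 without the 2 arrays farthest from the median of Nppa. That relation, which the analysis plan had put first, also holds the differences between groups, so the relation within groups is described here and was planned as its alternative. After each group's mean was removed, Nppa and Nppb deviations over the 30 arrays had a Pearson r of 0.62 (permutation p = 0.00208, adjusted p = 0.00624 over 3 relations, 100000 rearrangements within groups) and a Spearman rho of 0.69 (permutation p = 0.00042, adjusted p = 0.00126). Without the 2 arrays farthest from the median of Nppa deviations, female soy wild-type array 3 and female casein HCM array 4, r was 0.60 (permutation p = 0.00228). Within array sets of at least 6 arrays r was 0.58 in soy wild type (n = 8), 0.58 in soy HCM (n = 6) and 0.84 in casein HCM (n = 8). Both casein wild-type sets hold too few arrays for a value, and each casein wild-type group mixes the 2 sets. In a check added after these values were seen, with the mean of each group within each array set removed and rearrangements made within these, r was 0.58 (permutation p = 0.019) and rho 0.58 (permutation p = 0.0104).

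No within-group relation with the atrial light chain Myl7 passed the same test. Deviations leave out the differences between groups, where Myl7 moved in the direction of Nppa in several comparisons given below. Myl7 deviations had an r of 0.11 with Nppa (permutation p = 0.646, rho 0.12 with p = 0.578, r 0.05 without the 2 farthest arrays) and of 0.09 with Nppb (permutation p = 0.639, rho 0.07 with p = 0.716, r 0.12 without the 2 farthest arrays).

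**Figure D3:**
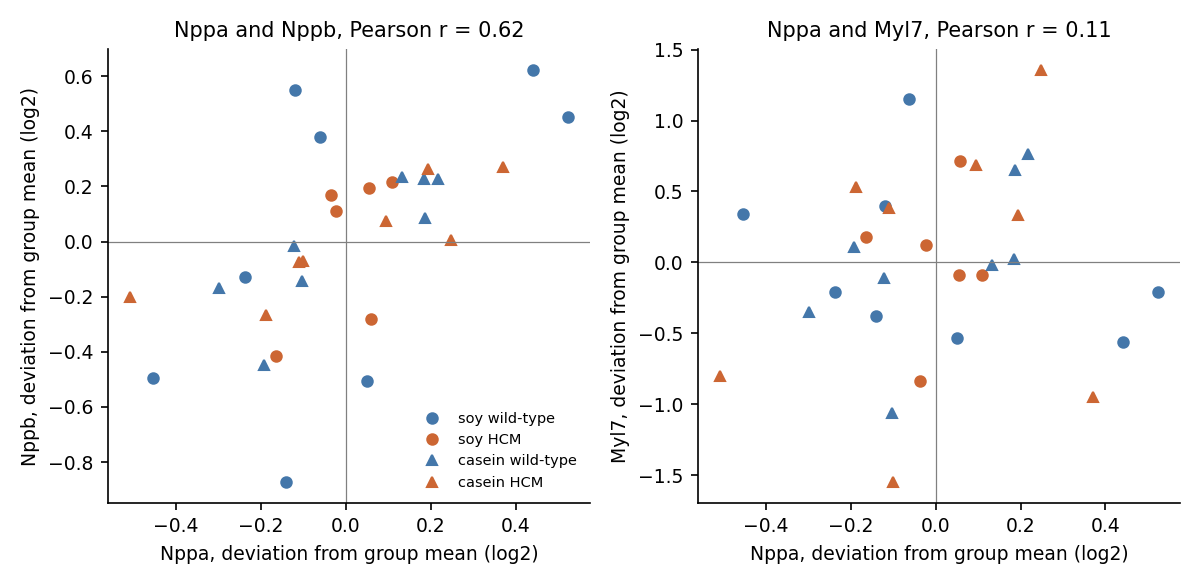
Deviation of each of the 30 arrays from its group mean (log2), Nppa against Nppb and Nppa against Myl7, with colour for genotype and marker shape for diet. Arrays high in Nppa for their group tended to be high in Nppb (r = 0.62), whereas Nppa and Myl7 deviations had an r of 0.11. Differences between groups are not shown in these deviations.

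Atrial markers are given because atrial tissue is rich in Nppa. Of the 11 measured of 15 listed, 5 rose and 1 fell with HCM on casein (49.6% of all genes called), 0 rose and 3 fell on soy (25% called), and 0 rose and 6 fell from soy to casein in wild type (47% called), by limma. From soy to casein in HCM 4 rose and 2 fell (62.1% called), and for HCM by diet 5 had a positive and 1 a negative difference (45.1% called). Over both diets 0 rose and 1 fell, Nr2f1 with -0.13 (adjusted p = 0.0194). Myl7 was chosen for its values among them: with HCM it fell by 1.32 ± 0.37 on soy (adjusted p = 0.00968), rose by 1.58 ± 0.34 on casein (adjusted p = 0.000336), and from soy to casein in wild type fell by 1.02 ± 0.34 (adjusted p = 0.0146). From soy to casein in HCM it rose by 1.88 ± 0.36 (adjusted p = 6.68e-05), and its HCM by diet difference was 2.90 ± 0.50 (adjusted p = 3.1e-05). The mean log2 level over the 11 genes ran, on soy, from 6.10 to 6.43 on wild-type arrays and 5.98 to 6.21 on HCM arrays. On casein it ran from 5.90 to 6.16 on wild-type and 6.07 to 6.49 on HCM arrays. Myl7 thus moved in the direction of Nppa with HCM on casein, with diet in both genotypes and for HCM by diet, and opposite to Nppb with HCM on soy. Their part in the Nppa result was not tested. The within-group relation with Myl7 leaves out differences between groups and so cannot bear on it.

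Heart muscle markers, listed for the ventricle but not all specific to it, moved with HCM and with diet as well. All 9 measured of 12 listed were called higher for the mean HCM effect (18.7% of all genes were) and on soy (12.3%), and 5 higher and 1 lower on casein (49.6% called in either direction). Among the 4 largest, Myl3, a ventricular myosin light chain, rose by 0.29 ± 0.03 (adjusted p = 5.04e-07), Tnnt2 by 0.25 ± 0.05 (adjusted p = 0.000185), Actc1 by 0.25 ± 0.04 (adjusted p = 1.76e-05) and Mb, myoglobin, by 0.24 ± 0.04 (adjusted p = 0.000145). Second probe sets of Actc1 (0.08, adjusted p = 0.161) and Mb (0.03, adjusted p = 0.741) were not called. The mean level of the 9 genes ran from 11.72 to 12.19 on soy wild-type arrays and 12.32 to 12.43 on soy HCM arrays, without overlap, and from 12.36 to 12.56 on casein wild-type and 12.54 to 12.69 on casein HCM arrays. Male soy wild-type array 2 had the lowest marker level (11.72) and the lowest Nppb (9.13) of the 30. Their part in the Nppb result was not tested.

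By likeness of pattern over the 30 arrays, the gene nearest to Nppb was Ankrd1, a stretch-responsive cardiac ankyrin repeat protein, with a Pearson r of 0.92. The next 5 were Rnf11 (0.88), Fam136a (0.88), Cldnd1 (0.87), Septin7, a cytoskeletal GTPase (0.87), and Vps29, a retromer subunit (0.87). Since these genes were chosen for their pattern on the same arrays, their HCM differences are a description, with no test. Ankrd1 differed by 0.59 on soy and 1.65 on casein, and Septin7 by 0.44 and 1.07. The other 4 differed by 0.13 to 0.37 on soy and 0.64 to 0.85 on casein. Deviations of the 6 genes from group means had an r of 0.51 to 0.76 with Nppb.

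The 6 genes nearest to Nppa, chosen in the same way, were all different ones. They were Ccn2, connective tissue growth factor (r = 0.84), Ptger4, a prostaglandin E2 receptor (0.83), Mgp, matrix Gla protein (0.83), Pgrmc1 (0.82), Serf2 (0.81) and the mouse gene Dap (0.81), which is not the bacterial control of that name. Ccn2 differed by -0.33 on soy and 1.71 on casein, and Mgp by -0.19 and 1.17. The other 4 differed by -0.12 to 0.10 on soy and 0.51 to 0.81 on casein. Deviations of these 6 genes had an r of 0.36 to 0.56 with Nppa. Nppb stood 79th of 8250 genes in likeness to Nppa, and Nppa 308th in likeness to Nppb. These coefficients describe arrays that share groups and array sets.

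Of the other natriuretic pathway genes, 14 were measured among 23 listed. For the mean HCM effect 2 rose, 1 fell and 11 did not pass, against 34.1% of all genes called, with a median difference of 0.0008 against -0.0013 over all genes. On soy 1 rose and 2 fell (25% of all genes called), and on casein 2 rose and 2 fell (49.6% called). The third ligand, Nppc (C-type natriuretic peptide), gave -0.07 on soy and 0.04 on casein, neither called. The guanylin ligands, which act mainly in gut and kidney, were Guca2a, which fell by 0.54 ± 0.08 on casein (adjusted p = 2.62e-06) and gave -0.02 on soy, and Guca2b, which was not called on either diet. The mean level of Guca2a was 5.05, below every array median.

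Among receptors, Npr1, the cyclic GMP-forming receptor of both peptides, read only 3.52 to 3.95 over the arrays and gave -0.05 on soy and -0.07 on casein. Npr3, which clears the peptides from the circulation and had a low mean level of 5.27, rose by 0.26 ± 0.08 on soy (adjusted p = 0.0123) and gave 0.04 on casein. Its other probe sets disagreed on soy, with 0.33 (adjusted p = 0.000575 over all probe sets) for one and -0.10 (adjusted p = 0.31) for the other. Gucy2c, the guanylin receptor, gave 0.06 on soy and fell by 0.21 ± 0.06 on casein (adjusted p = 0.00398), where a second probe set gave -0.10 (adjusted p = 0.217).

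Among enzymes that cut the prohormones, Corin, which activates pro-atrial natriuretic peptide, gave 0.05 on soy and 0.08 on casein. Furin, a proprotein convertase that can cut the B-type precursor, gave 0.08 and -0.05, and Pcsk6, which activates corin, 0.03 and 0.06, none of them called. Of the degrading enzymes, Mme (neprilysin) fell by 0.21 ± 0.08 on soy (adjusted p = 0.0467) and rose by 0.28 ± 0.07 on casein (adjusted p = 0.00232), and Ide, the insulin-degrading enzyme, gave -0.03 on both. Its other probe sets disagreed on casein, with -0.31 (adjusted p = 0.0421 over all probe sets) and -0.86 (adjusted p = 3.09e-09), and were not called on soy. Downstream, Pde9a, a phosphodiesterase specific for cyclic GMP, rose by 0.48 ± 0.07 on casein (adjusted p = 2.31e-06) and gave 0.00 on soy. Prkg2, a cyclic GMP-dependent kinase, fell by 0.28 ± 0.09 on soy (adjusted p = 0.0205) and gave -0.02 on casein. Gucy1b1, a subunit of the nitric oxide receptor, gave 0.22 and 0.15, neither called. Mean levels over the arrays were low, 4.36 for Pde9a, 4.65 for Mme, 4.13 for Gucy1b1 and 5.61 for Prkg2. These lie below the array medians of 6.11 to 6.22, and detection was not scored.

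**Figure D4:**
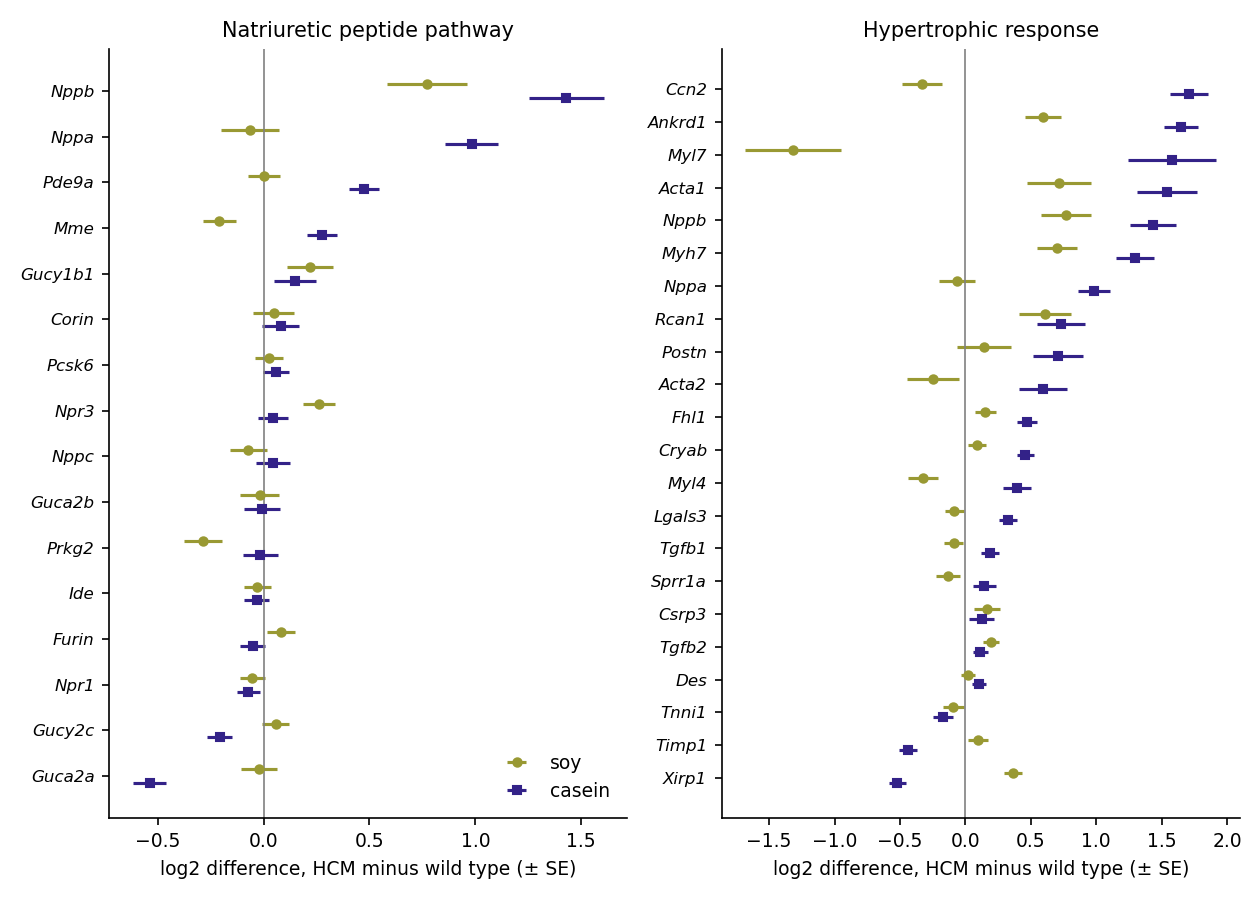
HCM minus wild-type difference (log2 ± SE, x axis) on soy (circles) and casein (squares) for each measured gene of the natriuretic pathway list and the hypertrophic response list. Nppb is right of 0 on both diets (0.77 and 1.43) and Nppa on casein alone (0.98), while most other pathway genes lie near 0.

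From soy to casein in wild-type ventricle 4 of the 14 genes rose and 3 fell, a share near the 47% of all genes called. Furin rose by 0.34 ± 0.06 (adjusted p = 4.7e-05) and Corin by 0.23 ± 0.09 (adjusted p = 0.0377), while Nppa itself fell. Nppc rose by 0.22 and Guca2a by 0.25, and Gucy1b1 fell by 0.51 ± 0.10 (adjusted p = 0.000109), Mme by 0.31 and Npr3 by 0.17. In HCM ventricle 4 were higher and 4 lower on casein, where 62.1% of all genes were called. None of the 14 genes was called for the mean sex effect, in which 0.267% of all genes were.

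For the mean HCM effect the hypertrophic response list placed both peptides among its larger changes. Of the 20 other members measured, 9 rose and 1 fell for the mean HCM effect (median 0.15, 34.1% of all genes called), 6 rose and 2 fell on soy (median 0.09, 25% called), and 13 rose and 2 fell on casein (median 0.43, 49.6% called). Acta1, skeletal alpha-actin, rose by 1.13 ± 0.17 (adjusted p = 9.9e-06), Ankrd1 by 1.12 ± 0.09 (adjusted p = 1.8e-09), Myh7, the slow myosin heavy chain, by 0.998 ± 0.10 (adjusted p = 7.04e-08) and Ccn2 by 0.69 ± 0.11 (adjusted p = 1.52e-05), against 1.10 for Nppb and 0.46 for Nppa. On soy and casein Acta1 rose by 0.72 and 1.54, and Myh7 by 0.70 and 1.30, both called on both diets as Nppb was. Nppa gave -0.06 on soy, which was not called (adjusted p = 0.764). A second Myh7 probe set gave -0.16 on soy (adjusted p = 0.146) and 0.53 on casein (adjusted p = 1.42e-06).

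Of 24 measured cardiac transcription factors among 31 listed, 3 rose and 5 fell with HCM over both diets (34.1% of all genes called), 7 rose and 3 fell on soy (25% called), and 6 rose and 11 fell on casein (49.6% called, median -0.18 against 0.0116 over all genes). Mef2a, a muscle factor, rose by 0.33 ± 0.07 (adjusted p = 0.000671), made up of 0.88 on soy and -0.22 on casein (adjusted p = 0.0555). Mef2c fell by 0.25 ± 0.06 (adjusted p = 0.00122), although its other probe sets ranged from -0.45 to 0.13. Mef2d fell by 0.19 ± 0.07 (adjusted p = 0.0263), with 0.29 on soy and -0.67 on casein. Nkx2-5, whose word lies in the printed Nppa window, fell by 0.18 ± 0.04 (adjusted p = 0.00105). Gata4 and Gata6 are named because GATA words lie in both windows, and Tead1 because the TEAD word lies in that of Nppb. This choice was made after their values were seen. Tead1 gave -0.07 over both diets (limma, adjusted p = 0.339). A second Tead1 probe set gave 0.10 on soy (adjusted p = 0.236 over all probe sets) and -0.15 on casein (adjusted p = 0.0344). Gata4 gave -0.04 on soy (adjusted p = 0.824) and -0.16 on casein (adjusted p = 0.207). Gata6 rose by 0.40 ± 0.10 on soy (adjusted p = 0.00444) and fell by 0.49 ± 0.09 on casein (adjusted p = 7.97e-05). One further Gata6 probe set gave 0.29 on soy (adjusted p = 0.00107) and -0.16 on casein (adjusted p = 0.0182), and another was called on neither diet.

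Markers of other cells of the ventricle were counted for the mean HCM effect (34.1% of all genes called), then on soy (25%) and on casein (49.6%). Of 8 fibroblast genes 4 rose and 1 fell over both diets (Postn 0.43, Dcn 0.39, Lum 0.37 and Col1a2 -0.26 the largest), 1 rose and 2 fell on soy, and 5 rose and 1 fell on casein. A second Col1a2 probe set gave 0.07 (adjusted p = 0.365). Col3a1, the 1 gene fallen on casein (-0.29), rose there in its 2 other probe sets. They gave 0.49 (adjusted p = 3.07e-05 over all probe sets) and 0.42 (adjusted p = 3.6e-05). Other probe sets fell on casein for Pdgfra (-0.15, adjusted p = 0.0345), which had risen by 0.18, and for Col1a1 (-0.43, adjusted p = 2.33e-05), which was not called. Of 7 endothelial genes 3 rose and 2 fell over both diets (Pecam1 -0.38, Eng -0.32, Tek 0.29, Cdh5 0.28), with 3 risen and 0 fallen on soy, and 0 risen and 4 fallen on casein. Flt1, 1 of the 4 fallen on casein (-0.23), rose there in a second probe set (0.50, adjusted p = 0.0118 over all probe sets). That probe set fell by 0.83 on soy (adjusted p = 0.00111). Kdr, an endothelial growth factor receptor named after its values were seen, rose by 1.02 ± 0.10 on soy (adjusted p = 2.67e-08), fell by 0.57 ± 0.09 on casein (adjusted p = 5.57e-06) and had an HCM by diet difference of -1.59 ± 0.13 (adjusted p = 2.6e-10). Of 6 smooth muscle and pericyte genes 4 rose over both diets, including Rgs5 by 0.74 and Tagln by 0.40, with 1 risen on soy and 5 on casein.

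Of 5 macrophage genes 1 rose and 2 fell over both diets (Lyz2 0.34, Csf1r -0.17, Cd14 -0.13), 0 were called on soy, and 2 rose and 1 fell on casein. Second probe sets of Lyz2 (0.02, adjusted p = 0.867) and Csf1r (0.13, adjusted p = 0.217) were not called over both diets, and that of Csf1r rose by 0.56 on casein (adjusted p = 0.00013). Of 7 skeletal muscle genes 2 rose and 1 fell over both diets (Acta1 1.13, Tnnt3 0.18, Tnni2 -0.12), 1 rose on soy, and 2 rose and 1 fell on casein. Neither of the 2 red blood cell genes passed (Hba-a1 0.09, Alas2 0.15). The part of these markers in the peptide results was not tested.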

How the data were processed

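The 30 arrays were deposited by the authors as log2 expression values, and the submitters' processing notes name RMA and Affymetrix Expression Console. Their versions and parameters are not stated there, and no detection calls were used. Of 12488 probe sets, 66 controls were left out of the tests. Of the other 12422, 10833 had 1 gene symbol in the platform annotation, 396 several and 1193 none. The probe set with the highest mean stood for each of 8251 genes (2073 had several). Groups followed the labels. limma 3.58.1 in R 4.3.3 fitted 8 group means (22 residual and 6.16 prior degrees of freedom), two-sided, with Benjamini-Hochberg adjustment over the 8251 genes per comparison. Positive means higher in HCM, on casein or in females. Of 28 comparisons per gene, 9 (diet and sex within single strata, and diet by sex in wild type) were added after values were seen. For the correlation of the members the plan put levels first and deviations from group means second, and both are given. The procedure was tested on simulated data. Promoters came from RefSeq (GRCm38.p6), and both members matched. The number of arrays limits the precision.

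Named genes were the members, for each the 6 genes of highest Pearson r, every measured natriuretic pathway gene, and up to 4 genes of other lists with the largest called mean HCM effect. The members and lists were chosen with earlier results of these data known. Alternatives covered every probe set, leaving out the dimmest 40% of genes, quantile normalization, median centring, a replicate block, array weights, a variance trend, array sets as a random block, subsets of groups and each array left out. Same-numbered replicates were not treated as pairs.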

Additional observations from a re-analysis of the deposited data

Results flagged for a closer look

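Both genes were picked out because the effect of HCM differed between the diets by a test of the difference itself. For Nppa the HCM effect on casein exceeded that on soy by 1.05 on the log2 scale (limma, adjusted p = 4.51e-05), and for Nppb by 0.66 (adjusted p = 0.0392). Diet and genotype groups fall in separate array sets, so the difference cannot be told apart from them. Of all genes 45.1% were called in this comparison, so such a flag is common. The Nppb call was lost when any 1 of 12 arrays was left out. It was also lost with array sets as a random block (limma, adjusted p = 0.236) and with quantile normalization added (adjusted p = 0.0979). In groups of 4 arrays, no lowest or highest array stood apart by a gap over 0.829 of the range, in 12 such checks. With 4 arrays this check can find only an extreme gap. The soy HCM groups of 3 arrays were not checked. In soy HCM males Nppb read 10.37 on array 1 against 11.01 and 10.98 on arrays 2 and 3.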

How the results depend on the processing

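Replicate numbers did not pair the arrays: of 28 pairs of groups, 1 had every same-number correlation over 0.1, and the median same-number correlation was -0.0022 against 0.0109 for other numbers. With the replicate block, the Nppb diet effect in HCM males was 0.67 (adjusted p = 0.0471) and so passed, and no other call changed.

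Testing every probe set, or leaving out the 8 casein HCM arrays, changed no direction or call that it could give. The Nppb HCM effect in soy males passed at 0.79 without the dimmest 40% of genes (adjusted p = 0.0449) and with a variance trend (adjusted p = 0.0487). With quantile normalization added, Nppa gave a mean diet effect of -0.091, diet by sex of 0.053, a diet effect of -0.57 in wild-type males (now called) and 0.33 in HCM males (no longer called). Nppb then gave a mean diet effect of 0.092, 0.34 in HCM, 0.45 in HCM females and HCM by diet of 0.50, none of them called, and changed sign for diet in wild type (-0.16), HCM by sex on soy (0.068) and sex in soy wild type (-0.088). With each array centred on its median, Nppa gave an HCM effect of 0.005 in soy males and a diet effect of -0.46 in wild-type females (not called), and the Nppb diet effect in HCM males, 0.67, was called. With array weights, Nppb was called for HCM in soy males (0.57) and females (0.66) and for diet in HCM males (0.46), and changed sign for diet in wild type (-0.14), HCM by sex on soy (0.089) and sex in soy wild type (-0.23), as did Nppa for diet by sex (0.05). With array sets as a random block, calls were lost for Nppa diet in wild type (-0.45), wild-type females (-0.53) and HCM males (0.55), and for Nppb HCM on soy (0.77), mean diet (0.39), HCM by diet (0.66) and diet in HCM females (0.83). With casein wild-type replicates 1 and 2 only, Nppa changed sign for HCM by sex (-0.16), diet by sex (0.15), HCM by sex on casein (-0.21), the three-way difference (-0.093) and diet by sex in wild type (0.20), and lost diet in wild-type females (-0.37), and Nppb lost HCM by diet (0.62). With replicates 3 and 4 only, Nppa sex in casein wild type was -0.23, and Nppb lost HCM in casein males (0.80) and HCM by diet (0.70). With only the 2 groups compared, Nppb diet in HCM males was 0.62 and called. Except where an alternative tests fewer genes or arrays, the cause was not tested.

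Leaving out 1 array at a time kept direction and call for 36 of 56 results. The others ranged, for Nppa, from -0.14 to 0.024 for HCM on soy, -0.085 to 0.14 in soy males, -0.27 to 0.053 in soy females, -0.058 to 0.11 for HCM by sex, -0.10 to 0.061 for diet by sex, -0.27 to 0.059 for HCM by sex on soy, -0.68 to -0.35 for diet in wild-type females, 0.47 to 0.61 in HCM males and -0.31 to 0.015 for diet by sex in wild type. For Nppb they ranged from 0.50 to 0.99 for HCM in soy males, 0.59 to 0.94 in soy females, -0.081 to 0.17 for diet in wild type, 0.16 to 0.66 in wild-type males, 0.41 to 0.73 in HCM males, 0.69 to 0.91 in HCM females, -0.009 to 0.17 for sex in HCM, 0.56 to 0.80 for HCM by diet, -0.24 to 0.26 for HCM by sex on soy, -0.27 to 0.23 for sex in soy wild type and -0.22 to 0.13 for sex in soy HCM. Each gene rests on 1 probe set, detection was not scored, and 3 or 4 pools per group limit the smallest difference that could be called.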

Other observations

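Among casein wild-type arrays, the HCM rise depended on which array set served as control by an amount that differed between sexes. For Nppb it was 1.11 in males and 1.68 in females against replicates 1 and 2, and 0.80 and 2.14 against replicates 3 and 4. For Nppa it was 1.11 and 0.90 against replicates 1 and 2, and 0.71 and 1.22 against replicates 3 and 4. No test was made of these differences.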
